A study of Mus musculus with 4 samples.

Results

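The 37 genes described here are genes that young neurons switch on as they leave the cell cycle, extend axons and acquire a transmitter. They were chosen by name from the deposited expression table of the frontonasal prominence (FNP), and all 37 were found among its 33708 autosomal gene rows. All are protein coding, and they lie on 15 chromosomes. By role they comprise 12 genes of the cytoskeleton, 3 of the growth cone and axon surface, 5 encoding RNA-binding or splicing proteins, 7 transcription factors, 6 genes of vesicles and the secretory pathway, and 4 transmitter genes.

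A neural progenitor that becomes a neuron first expresses RNA-binding proteins of the Elavl family and neuronal tubulin, then assembles growth cones and neurofilaments, and later makes the machinery for transmitter release. The FNP gives rise to the nose and snout. It consists of facial mesenchyme covered by surface ectoderm, with the nasal placodes, and lies directly in front of the forebrain. Neurons in a dissected FNP can therefore come from the forebrain wall, from the olfactory placode and from nerves that grow into the face.

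RNA sequencing of the FNP was performed on 4 mouse embryos of the FVB/NJ strain at E10.5, all at the 29-somite stage. The WT group held 2 Smchd1+/+ embryos, labelled 1 female and 1 male. The MD43 group held 2 Smchd1MommeD43/MommeD43 embryos, both labelled male, which carry in all cells a chemically induced missense allele of Smchd1, the gene of a chromatin silencing protein. The WT and MD43 embryos numbered 2 were littermates by their labels, and those numbered 1 had 2 other mothers. Sex was not balanced between the genotypes and was not checked here, and its part in the values was not tested. The genotypes were compared to ask how homozygosity for the MD43 allele alters transcript levels in the developing face.

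The table gives 1 log2 RPKM value per gene and genotype, that is, reads scaled to transcript length and library depth, on a log2 scale, merged by the authors over the 2 libraries of the genotype. No spread between embryos could be obtained from it, and no test of the genotypes could be run on these values. The authors' own false discovery rate (FDR) per gene was not used, and every difference below lacks a replicate check. Reads behind a value were recovered as the geometric mean of the 2 libraries. The implied depth was 22328791 reads per library for MD43 and 16055882 for WT, a ratio of 1.39. The ± value beside each log2 fold change (MD43 minus WT) is a lower limit to its standard error, from read counting alone, and leaves out variation between embryos. A 95% counting interval is 1.96 of these errors to either side. Members set against each other below were paired after their values were seen, so the intervals of these pairs are descriptions and not tests. Smchd1 itself, which carries the mutation and is transcribed in both genotypes, had a level of 3.31 log2 RPKM in WT and 3.30 in MD43.

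Of the 37 genes, 36 had at least 10 reads in a genotype and are counted below, and Slc32a1 did not. Of the 36, 29 were lower in MD43 and 7 were higher, where 48.8% of all 15377 genes past the same limit were lower. Their median log2 fold change was -0.31, with a range from -1.13 to 0.46, beside a median of 0.0057 for all genes. At least 1.5-fold lower were 10 of the 36 (27.8%), against 6.43% of all genes, and none was at least 1.5-fold higher, against 4.24% of all genes. Only 1 of the 36, Slc17a6, was at least 2-fold lower, against 2.47% of all genes, and none was at least 2-fold higher, against 1.64%. The difference exceeded 1.96 counting errors for 20 genes that were lower and 2 that were higher (Dpysl3 and Gad2), while 24.2% of all genes were lower and 26.2% higher by this measure. The remaining 14 lay within counting error. In bulk tissue, fewer neurons and less RNA per neuron cannot be told apart.

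**Figure D1:**
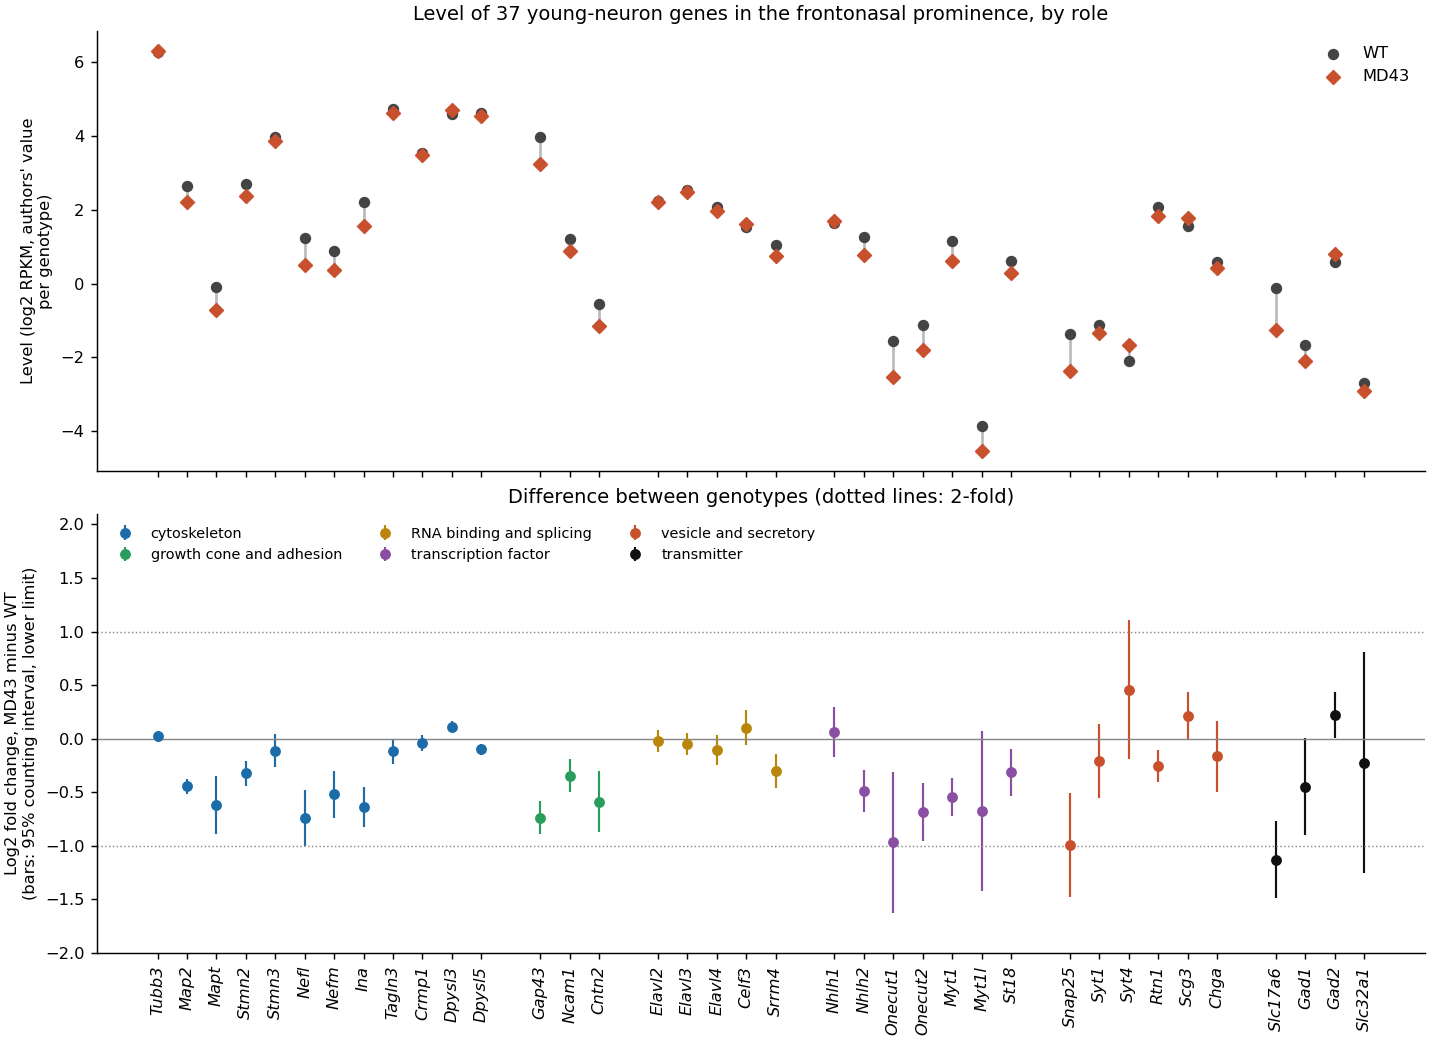
The upper panel plots the level of each of the 37 genes in log2 RPKM for WT (circles) and MD43 (diamonds), grouped by role, and the lower panel plots the log2 fold change with its 95% counting interval, which leaves out variation between embryos. Levels ran from Myt1l at -3.86 in WT to Tubb3 at 6.28, and only Slc17a6 passed the dotted line for 2-fold lower.

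The groups of genes did not differ from WT to the same extent. The median log2 fold change was -0.05 for the RNA-binding genes, -0.18 for the vesicle and secretory genes and -0.22 for the cytoskeletal genes. It was -0.45 for the 3 transmitter genes past the limit, -0.55 for the transcription factors and -0.59 for the 3 growth cone and adhesion genes. The summed level of all 37 genes was 265 RPKM in WT and 246 in MD43, a log2 ratio of -0.11. The largest single part of this sum was Tubb3, with 77.8 RPKM in WT and 79.0 in MD43. Next in WT were Tagln3 (26.9 and 24.8 RPKM), Dpysl5 (24.9 and 23.2) and Dpysl3 (24.4 and 26.4).

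Sequences around the start of transcription are shown for 4 members with log2 fold changes from -1.13 to 0.22. These are Slc17a6, the member with the largest difference, Ina, the most abundant neurofilament gene listed, Tubb3, the member with the highest level, and Gad2, which was higher in MD43. RefSeq promoter windows of GRCm38.p6 (250 bases before and 50 after the start, plus strand for all 4) were matched to 26 of the 37 genes. They lie at chr7:51621580-51621879 for Slc17a6, chr19:47014431-47014730 for Ina, chr8:123411303-123411602 for Tubb3 and chr2:22622077-22622376 for Gad2. The RefSeq start lay 176 bases from the gene start of the expression table for Slc17a6, 17 for Ina, 129 for Tubb3 and 122 for Gad2. The Slc17a6 window ends before that gene start and does not contain it. Capitals mark, on either strand, the E-box words CAGCTG and CAGATG, which proneural and Nhlh factors can bind, the words CAGCACC and GGACAGC, which occur in the site of the neuronal gene repressor REST, and the GC box GGGCGG.
Slc17a6: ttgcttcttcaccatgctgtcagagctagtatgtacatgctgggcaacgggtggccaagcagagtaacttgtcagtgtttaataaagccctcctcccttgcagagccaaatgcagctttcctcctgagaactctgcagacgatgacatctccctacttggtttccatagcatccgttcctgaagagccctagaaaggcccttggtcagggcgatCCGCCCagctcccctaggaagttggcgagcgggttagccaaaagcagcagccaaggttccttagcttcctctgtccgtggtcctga
Ina: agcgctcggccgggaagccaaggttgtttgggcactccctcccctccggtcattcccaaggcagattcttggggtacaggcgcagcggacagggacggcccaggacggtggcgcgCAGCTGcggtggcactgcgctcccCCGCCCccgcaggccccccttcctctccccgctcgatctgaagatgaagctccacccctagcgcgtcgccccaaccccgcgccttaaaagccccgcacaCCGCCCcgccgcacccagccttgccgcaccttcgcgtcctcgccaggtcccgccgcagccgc
Tubb3: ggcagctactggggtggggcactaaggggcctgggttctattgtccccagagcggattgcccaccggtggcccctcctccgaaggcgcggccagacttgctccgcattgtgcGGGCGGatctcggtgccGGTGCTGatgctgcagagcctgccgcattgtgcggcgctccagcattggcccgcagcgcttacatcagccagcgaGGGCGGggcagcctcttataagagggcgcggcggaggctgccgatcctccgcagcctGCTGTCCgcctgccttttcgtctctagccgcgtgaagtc
Gad2: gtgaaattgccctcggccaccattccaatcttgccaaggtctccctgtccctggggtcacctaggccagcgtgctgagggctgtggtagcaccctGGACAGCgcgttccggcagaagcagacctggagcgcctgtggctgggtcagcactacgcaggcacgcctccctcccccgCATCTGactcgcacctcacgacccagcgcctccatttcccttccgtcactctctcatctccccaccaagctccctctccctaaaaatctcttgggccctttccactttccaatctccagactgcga

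The Slc17a6 window holds 1 GC box and no other marked word. The Ina window holds 1 CAGCTG and 2 GC boxes, the Tubb3 window 1 CAGCACC, 1 GGACAGC and 2 GC boxes, and the Gad2 window 1 CAGATG and 1 GGACAGC. Over the 26 member windows, CAGCTG was found in 6, while 15.8% of 19208 promoters of genes in the table held it. CAGATG was found in 7 of the 26, against 15.9% of all promoters. GGACAGC was found in 4, against 6.99%, CAGCACC in 1, against 7.16%, and GGGCGG in 12, against 43.7%. ATTGAT, a word bound by Onecut factors, was found in 4 windows (Myt1, Myt1l, Nhlh1 and Nhlh2), against 6.85%, and AAAGTTT, a word bound by the Myt1 family, in none, against 4.48%. The TATA word TATAAA was found in 4 (Celf3, Chga, Elavl3 and Gad1), against 13.2%. All words were searched on both strands. These matches describe letters in a window of 300 bases and not binding.

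Among the cytoskeletal genes, the abundant tubulin and collapsin response mediator genes were close to their WT level, whereas the neurofilament genes were lower. Tubb3 encodes the beta-tubulin used as a general marker of neurons. Its level was 6.28 log2 RPKM in WT and 6.30 in MD43, a log2 fold change of 0.02 ± 0.03 on 2334 and 3294 reads, which became -0.04 once corrected for transcript length and GC content. Crmp1, Dpysl3 and Dpysl5 encode mediators of growth cone collapse. Crmp1 went from 3.54 in WT to 3.49 log2 RPKM in MD43, within counting error. Dpysl5 had 4.64 in WT and 4.54 in MD43, and Dpysl3 had 4.61 and 4.72. Although these last 2 differences were small (-0.10 ± 0.03 and 0.11 ± 0.03), both exceeded the counting error, and they were opposite in sign. The reads behind Dpysl5 were 2946 in WT and 3825 in MD43, and those behind Dpysl3 were 2589 and 3893.

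Nefl, Nefm and Ina encode the light, medium and alpha-internexin subunits of neurofilaments, which fill the growing axon. Nefl had a level of 1.24 log2 RPKM in WT and 0.50 in MD43, a log2 fold change of -0.74 ± 0.13. Nefm had 0.88 in WT and 0.36 in MD43, a log2 fold change of -0.52 ± 0.11. Ina had 2.21 in WT and 1.57 in MD43, a log2 fold change of -0.64 ± 0.10. All 3 subunits were thus lower, by 1.67-fold, 1.43-fold and 1.56-fold. Nefl was lower relative to Tubb3 by -0.76 on the log2 scale (95% counting interval -1.03 to -0.49), and Ina by -0.66 (-0.85 to -0.46). The heavy subunit gene Nefh, which is not in the list, was also lower, at -1.04 ± 0.37 on 19.4 reads in WT and 13.1 in MD43. Nefl (chromosome 14, 68083863 to 68089095, plus strand) lies within Nefm (68082590 to 68124846, minus strand), with 1108 shared exonic bases. Whether reads were counted by strand is not given in the sources used here, so these 2 genes may not be separate measurements.

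Map2, Mapt and the stathmins bind microtubules. Map2, which marks dendrites, was lower at 2.22 log2 RPKM in MD43 than in WT (2.66), a log2 fold change of -0.44 ± 0.04 on 1668 and 1707 reads. Mapt, the gene of the axonal protein tau, had -0.10 in WT and -0.72 in MD43, a log2 fold change of -0.62 ± 0.14. Stmn2 had 2.71 in WT and 2.38 in MD43 (-0.32 ± 0.06). Both axonal and dendritic microtubule genes were therefore lower by this measure, but Stmn3, a close relative of Stmn2, went from 3.99 to 3.87, within its counting error. Tagln3, an actin-binding gene of neurons, had 4.75 in WT and 4.63 in MD43, a log2 fold change of -0.12 ± 0.06 at the edge of the counting interval.

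All 3 growth cone and adhesion genes were lower in MD43. Gap43, a major protein of growth cones, was the fifth most abundant member in WT at 3.99 log2 RPKM and had 3.25 in MD43, a log2 fold change of -0.74 ± 0.08 on 388 and 324 reads. It lies on chromosome 16 (42248442 to 42340651, minus strand). Relative to Tubb3 it was lower by -0.76 (95% counting interval -0.92 to -0.60), and the level of Tubb3 was 4.91 times that of Gap43 in WT and 8.30 times in MD43. Ncam1, an adhesion molecule of neurons that other cells also use, had 1.22 in WT and 0.87 in MD43 (-0.34 ± 0.08). Cntn2, an axonal glycoprotein of early projection neurons, had -0.55 in WT and -1.14 in MD43 (-0.59 ± 0.15).

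The RNA-binding genes were the group closest to WT. Elavl2, Elavl3 and Elavl4 encode the neuronal Hu proteins, which stabilize and splice neuronal transcripts. Elavl2 had 2.24 log2 RPKM in WT and 2.22 in MD43, Elavl3 had 2.55 and 2.49, and Elavl4 had 2.06 and 1.96. None of these 3 differences exceeded counting error, and those of Elavl2 and Elavl4 turned to 0.09 and 0.0060 under the same correction. The largest, for Elavl4, was -0.10 with a 95% counting interval of -0.24 to 0.04, so that a difference of this size could not be detected at this depth. Celf3, a neuronal splicing regulator, had 1.52 in WT and 1.62 in MD43, also within counting error. Srrm4, which drives inclusion of neuronal microexons, was the exception in this group, with 1.06 in WT and 0.76 in MD43, a log2 fold change of -0.30 ± 0.08.

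Of the 7 transcription factors, 6 were lower and Nhlh1 was not. Nhlh1 and Nhlh2 encode related helix-loop-helix factors of newly born neurons. Nhlh1 had 1.65 log2 RPKM in WT and 1.71 in MD43 (0.06 ± 0.12), whereas Nhlh2 had 1.26 in WT and 0.77 in MD43 (-0.49 ± 0.10). The difference between these relatives was -0.55, with a 95% counting interval of -0.86 to -0.25.

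Myt1, Myt1l and St18 form a family of zinc finger factors of neuronal differentiation. Myt1 had 1.17 in WT and 0.62 in MD43 (-0.55 ± 0.09), and St18 had 0.61 and 0.29 (-0.31 ± 0.11). Myt1l was the member with the lowest level in both genotypes, at -3.86 in WT and -4.54 in MD43, and on 15.5 and 13.5 reads its difference of -0.68 lay within counting error. Onecut1 and Onecut2 encode cut homeodomain factors of early neurons. Onecut2 had -1.13 in WT and -1.81 in MD43 (-0.69 ± 0.14), and Onecut1 had -1.56 and -2.52 (-0.97 ± 0.33) on 22.4 and 16.0 reads. Both families thus had all of their listed members below WT. Of the exonic bases of Onecut1, 52.8% are shared with the lincRNA Gm20649 on the same strand, and its value is uncertain.

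The vesicle and secretory genes lay on both sides of WT. Snap25, a SNARE protein of transmitter release, had -1.38 log2 RPKM in WT and -2.37 in MD43, a log2 fold change of -0.99 ± 0.25 on 41.9 and 29.3 reads. It lies on chromosome 2 (136713453 to 136782428, plus strand) and was 1.99-fold lower, just short of the 2-fold limit. Rtn1, a reticulon of neuronal endoplasmic reticulum, had 2.08 in WT and 1.82 in MD43 (-0.26 ± 0.08). The other 4 genes did not exceed counting error. Syt1, the calcium sensor of synaptic vesicles, had -1.14 in WT and -1.34 in MD43, and Chga, a granin of dense-core vesicles, had 0.58 and 0.41. Scg3, another granin, had 1.56 in WT and 1.78 in MD43, a log2 fold change of 0.22 with a 95% counting interval of -0.01 to 0.44. Syt4, a synaptotagmin of dense-core vesicles, had -2.12 in WT and -1.66 in MD43 on 14.4 and 27.6 reads (0.46 ± 0.33). The difference between Snap25 and Scg3 was -1.21, with a 95% counting interval of -1.74 to -0.68. Snap25 was the lowest gene of this group and Scg3 a higher one, paired after their values were seen, so this interval is no test.

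The transmitter genes included both the member with the lowest log2 fold change and 1 of the 2 that were higher beyond counting error. Slc17a6 (chromosome 7, 51622006 to 51671119, plus strand) encodes VGLUT2, which loads glutamate into vesicles. Its level was -0.13 log2 RPKM in WT and -1.26 in MD43, a log2 fold change of -1.13 ± 0.18, or 2.18-fold lower, on 79.3 and 50.5 reads. It was less than 2-fold lower when a pseudocount was added, at -0.97 with 0.1 RPKM and -0.43 with 1 RPKM. Gad1 and Gad2 encode the glutamate decarboxylases that make GABA. Gad2 (chromosome 2, 22622205 to 22693874, plus strand) was higher in MD43 at 0.80 than in WT (0.57), a log2 fold change of 0.22 ± 0.11 on 140 and 228 reads. Gad1 had -1.65 in WT and -2.10 in MD43 (-0.45 ± 0.23), within counting error. The log2 fold changes of the 2 decarboxylase genes were opposite in sign, with a difference of -0.67 (95% counting interval -1.17 to -0.17). That of Gad2 only just exceeded counting error (95% counting interval 0.008 to 0.44), and that of Gad1 did not. Slc32a1, which loads GABA into vesicles, had -2.70 log2 RPKM in WT and -2.92 in MD43 on 6.93 and 8.25 reads, too few to describe a difference. On a linear scale, the level of Gad2 was 1.63 times that of Slc17a6 in WT and 4.15 times in MD43. The log2 fold change of Slc17a6 was below that of Gad2 by -1.35 (95% counting interval -1.77 to -0.93). This pair was also chosen after its values were seen, with Slc17a6 the lowest of all members.

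**Figure D2:**
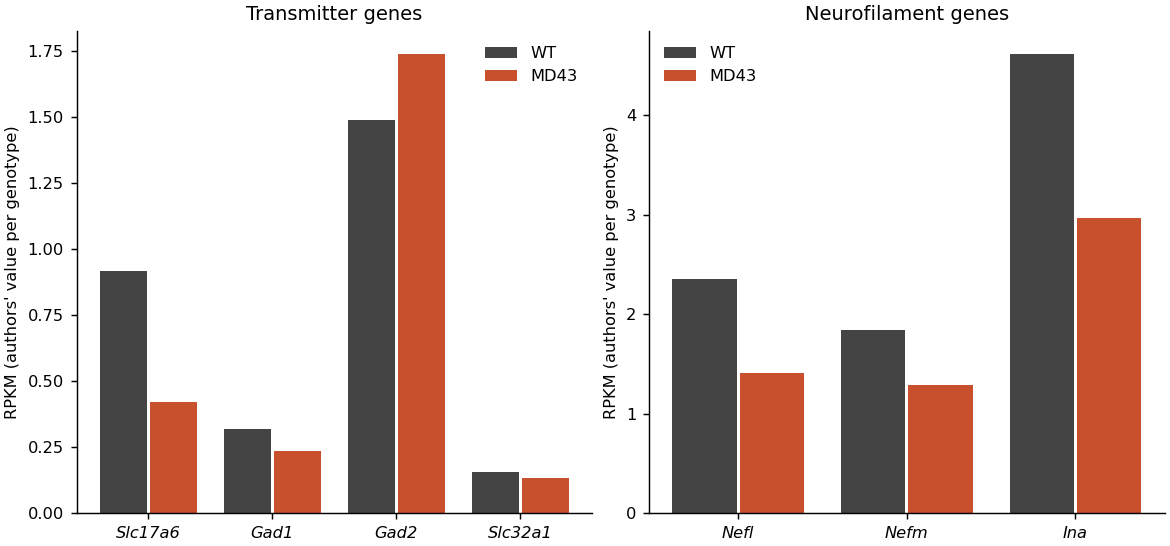
Bars plot the authors' value per genotype in RPKM (linear scale, no error bars because no value per library was given) for 4 transmitter genes on the left and 3 neurofilament genes on the right. Slc17a6 had 0.915 RPKM in WT and 0.419 in MD43 while Gad2 had 1.49 and 1.74, and all 3 neurofilament genes were lower in MD43.

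The differences were larger among members with fewer reads. Of the 17 members with a mean under 200 reads over both genotypes, 13 were lower, 8 of them at least 1.5-fold (47.1% of the 17), and the median log2 fold change was -0.52. Among all 5727 genes in this range 55.6% were lower, 15.2% were at least 1.5-fold lower and the median was -0.06. Of the 19 members with 200 reads or more, 16 were lower, 2 of them at least 1.5-fold (Ina and Gap43), and the median was -0.12. Among all 9650 genes in that range 44.8% were lower, 1.22% were at least 1.5-fold lower, and the median was 0.02. Across the 36 members, the log2 fold change and the mean log2 RPKM had a Pearson r of 0.45 and a Spearman rho of 0.46, against 0.11 and 0.15 across all genes. The members share their libraries and are not independent, and these coefficients are a description.

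**Figure D3:**
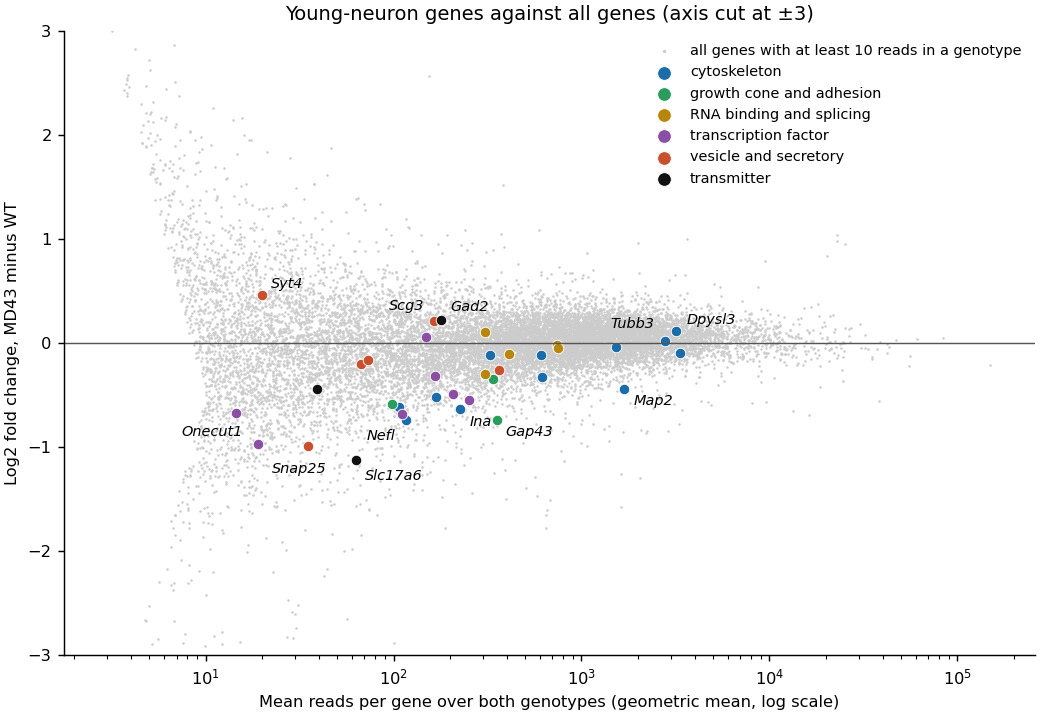
The log2 fold change (MD43 minus WT) of each gene is plotted against its mean reads over both genotypes on a log axis, with the 15377 genes in gray (values beyond 3 in either direction lie outside the axis) and the 36 members in color by role. Members with fewer than 200 reads spread from Slc17a6 at -1.13 to Syt4 at 0.46, and the abundant members Tubb3, Dpysl3 and Dpysl5 lay close to 0.

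A wider list of 83 other neuronal genes was examined in the same way. Of these, 79 were in the table, 63 had at least 10 reads in a genotype, and Dcx, L1cam, Syp and Syn1 were not analysed here. Of the 63, 46 were lower and 17 higher, with a median log2 fold change of -0.29, where 48.8% of all genes were lower. At least 1.5-fold lower were 17 (27.0%), against 6.43% of all genes, and 3 were at least 1.5-fold higher, against 4.24%. Of all genes with fewer than 200 mean reads, 15.2% were at least 1.5-fold lower. Among its cytoskeletal genes, Tubb2b (-0.08 ± 0.02), Stmn1 (-0.04 ± 0.02) and Map1b (0.05 ± 0.02) were near WT, Dpysl2 (-0.21 ± 0.04) and Tubb2a (-0.44 ± 0.07) were lower, and Stmn4, a stathmin of differentiated neurons, was 1.74-fold lower (-0.80 ± 0.14).

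The genes of this wider list that were at least 2-fold lower included Grin1, Th, Rbfox3, Dner, Chgb, Cacna2d1 and Nefh. Th, the gene of tyrosine hydroxylase in dopamine synthesis, had 0.83 log2 RPKM in WT and -0.73 in MD43 (-1.56 ± 0.22). Rbfox3, which encodes the mature neuron antigen NeuN, had -0.97 and -2.42 (-1.45 ± 0.25). Dner, a Notch ligand of neurons, had 0.23 and -1.14 (-1.37 ± 0.18). Cacna2d1, a calcium channel subunit, had -0.33 and -1.40 (-1.07 ± 0.13). Grin1 and Chgb had at most 12.0 and 10.2 reads in either genotype. Those between 1.5-fold and 2-fold lower included Celf4, Celf5, Celf6, Scrt1, Scrt2, Gria2, Slc5a7 and Stmn4. Of these the splicing regulator Celf5 had -0.84 ± 0.14 and the repressors Scrt1 and Scrt2 had -0.74 ± 0.19 and -0.87 ± 0.22. The 3 genes that were at least 1.5-fold higher were Dpysl4 (0.90 ± 0.52), Slc17a7 (0.68 ± 0.35) and Nos1 (0.70 ± 0.35), on at most 13.7, 27.7 and 27.7 reads.

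Markers of particular neurons and of the other cells of the FNP differed between the genotypes as well. Cajal-Retzius and preplate neurons are the first neurons of the cortex. Of their 9 markers, 8 were lower in MD43 (48.8% of all genes were) and 5 were at least 2-fold lower (2.47% of all genes were), with a median log2 fold change of -1.03 and a summed level of 26.4 RPKM in WT and 15.6 in MD43. The 4 with the highest level were Lhx5 (-1.12 ± 0.07), Eomes (-0.45 ± 0.08), Nr4a2 (0.17 ± 0.12) and Ebf3 (-0.22 ± 0.08), and Tbr1 (-1.60 ± 0.17) was added after its value was seen. Lhx5 alone contributed 12.9 RPKM in WT and 5.90 in MD43 to the summed level, and thus much of the difference in it. Markers of cranial sensory neurons went the other way. Of their 13 markers 7 passed the read limit, 5 of them higher and 2 lower, where 48.8% of all genes were lower. Their median was 0.12, with summed levels of 22.3 RPKM in WT and 24.6 in MD43. Prrxl1 had no reads in either genotype and Prph had 2.51 reads in WT and 2.12 in MD43. Markers of the olfactory epithelium and of gonadotropin-releasing neurons had 10 of 12 genes past the limit. Of these, 6 were higher and 4 lower, where 48.8% of all genes were lower. Their median was 0.12 and the summed levels were 89.8 and 114 RPKM, most of which were Lhx2 (0.49 ± 0.02) and Emx2 (0.30 ± 0.04). Gnrh1, with 1.73 reads in WT and 5.48 in MD43, and Omp, with at most 3.29 reads in either genotype, were under the limit. In the same list Calb2 (-1.03 ± 0.29), Prokr2 (-0.90 ± 0.32) and Robo3 (-0.70 ± 0.17) were at least 1.5-fold lower (6.43% of all genes were). None was at least 1.5-fold higher (4.24% of all genes were). Ebf3 and Calb2 are in this list and in that of Cajal-Retzius neurons, and Prph is also in the wider neuronal list.

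Of all genes past the limit, 48.8% were lower in MD43, and each count of the lists below stands beside that share. Neural progenitor markers had 10 of 13 genes lower, a median of -0.23 and summed levels of 618 RPKM in WT and 515 in MD43. Their most abundant genes were Vim (-0.42 ± 0.01), Sox2 (-0.13 ± 0.03), Nes (0.03 ± 0.02) and Hes5 (-0.23 ± 0.04). Vim alone contributed 239 RPKM in WT and 179 in MD43 to the summed levels, and thus much of the difference between them. The radial glia genes Fabp7 and Slc1a3 were the lowest of this list at -0.89 ± 0.05 and -0.86 ± 0.07. Surface ectoderm markers were higher, with 8 of 10 genes above WT, a median of 0.60 and summed levels of 127 RPKM in WT and 193 in MD43. Those of the highest level were Krt18 (0.49 ± 0.04), Cldn6 (0.87 ± 0.05) and Krt8 (0.70 ± 0.04). The 2 genes below WT were Tfap2a (-0.23 ± 0.07) and Grhl3 (-0.07 ± 0.10). Red blood cell markers were also higher, with 5 of 5 genes in the table above WT, a median of 0.79 and summed levels of 3159 and 5973 RPKM. Facial mesenchyme, the main tissue of the FNP, had its marker Msx1 well expressed in both genotypes (5.28 log2 RPKM in WT and 5.11 in MD43). It had 7 of 11 genes lower and a median of -0.20, with summed levels of 187 and 177 RPKM. Endothelium had 5 of 8 lower and a median of -0.03, with a log2 ratio of the summed levels of -0.05. With so few genes, neither count was far from the share of all genes that were lower. Of the crest glia markers 4 of 7 passed the limit, 3 of them lower, with a median of -1.08 and summed levels of 57.3 and 33.8 RPKM, most of which was Fabp7, also a neural progenitor marker. The other crest glia marker past the limit, Erbb3, was 1.89-fold higher (0.92 ± 0.08). Foxd3 had at most 0.949 reads in either genotype. The part of these cell types in the differences of the 37 genes was not tested.

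**Figure D4:**
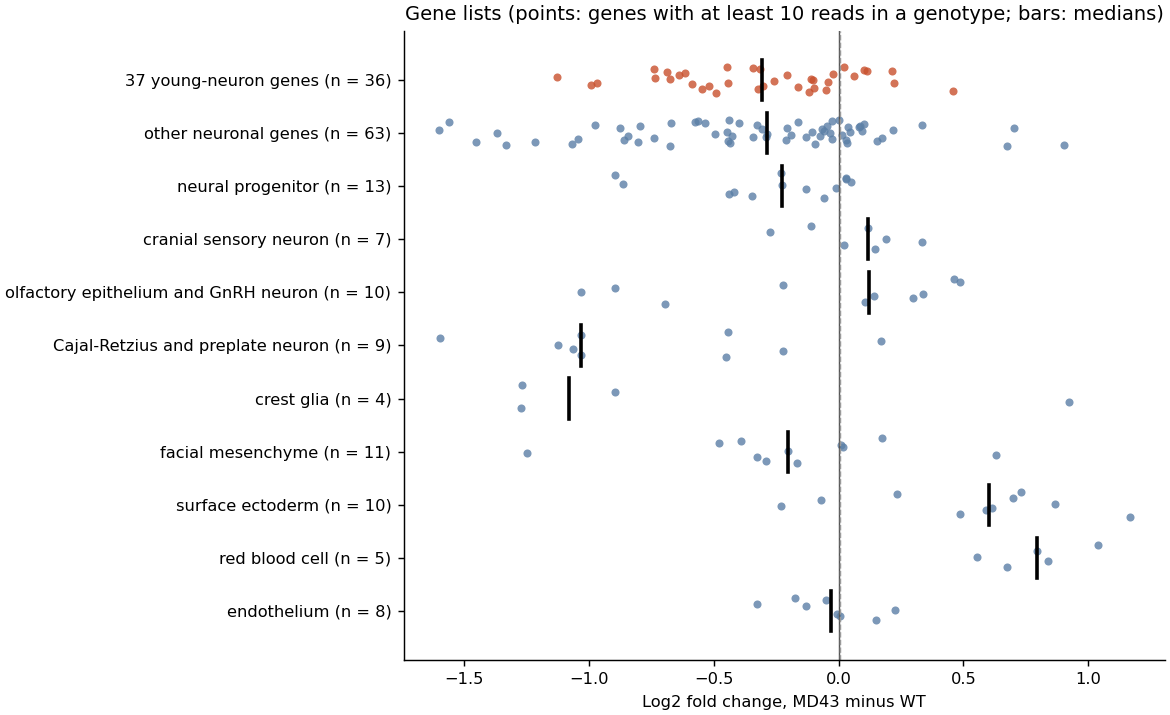
Each point is the log2 fold change (MD43 minus WT) of 1 gene with at least 10 reads in a genotype, for the 37 young-neuron genes and 10 lists of other genes, with the number of genes plotted given as n and the median as a black bar. The median of the young-neuron genes lay at -0.31, that of the Cajal-Retzius and preplate markers at -1.03 and that of the surface ectoderm markers at 0.60.

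Annotated neighbors limit some of these values. Of the 37 genes, 20 overlap another gene in the table and 12 share exonic bases with it, 7 of them with a gene that had at least 10 reads. Besides Nefl with Nefm and Onecut1 with Gm20649, Ina has 456 exonic bases (14.1%) in common with Nt5c2 on the opposite strand, which had 909 reads in WT and 1315 in MD43. Slc32a1 shares 24.9% of its exonic bases with Gm14205 and Syt4 14.5% with Gm26658, antisense genes with fewer than 3 reads in either genotype. Gm20388, on the same strand as Tubb3, shares no exonic base with it and had 1835 reads in WT and 2625 in MD43.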

How the data were processed

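RNA was measured in the FNP of 4 embryos, 2 per genotype, grouped by their sample titles. Per the labels, 100 ng of total RNA per embryo went into stranded poly(A) libraries. The authors trimmed reads with Trim Galore 0.4.4, mapped them with HISAT2 2.0.5 to GRCm38.p6 and quantified them in SeqMonk. The deposited values are log2 RPKM, with 1 column per genotype merged over its 2 libraries, and sex chromosomes were left out. The deposited table also holds the authors' log2 fold change, mean and FDR (q-value), none of which was used.

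Differences were computed here as MD43 minus WT with Python 3.11.15, numpy 2.4.6 and pandas 2.3.3. The test planned for counts could not be run, so no test of the genotypes was made. Exon lengths came from GENCODE M21 (GRCm38), where 33101 rows of the table were found. Genes without reads share 1 constant after removal of exon length, taken as 0.9 reads per library, and the square of a value relative to it gave the product of the reads of the 2 libraries. Of products under 1000, 99.9% were whole, or 0.9 times a whole number, to within 0.005 in both MD43 (19839) and WT (20250). The recovery was tested on simulated data. Precision is limited by these reads, and intervals cover counting error only. Genes needed at least 10 reads in a genotype, except that no limit was applied to the levels listed. Alternatives were pseudocounts of 0.1 and 1 RPKM, other read limits, centering, a quadratic correction for transcript length and GC content, and a 1.5-fold limit. Every listed member is named. Of the wider neuronal list, genes at least 1.5-fold apart are named (a few are not reported here), and of marker lists up to 4 of the highest level. The members and lists were chosen with earlier results of these data known, and genes named outside these rules (such as Tubb2a, Tubb2b, Dpysl2, Tbr1, Prokr2 and Slc1a3) were chosen after their values were seen, as were the limit of 200 mean reads, the paired members and the promoter words. RefSeq promoters used the window nearest to the annotated start.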

Additional observations from a re-analysis of the deposited data

How the results depend on the processing

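The number of members at least 2-fold lower was 1 as described, 0 with a pseudocount of 0.1 RPKM, 0 with a pseudocount of 1 RPKM and 10 with the limit set at 1.5-fold. It stayed at 1 without a read limit, with at least 50 reads in a genotype (31 members), after centering and after the correction for GC content and length. The number at least 2-fold higher was 0 under every alternative run. The median log2 fold change of -0.31 became -0.15 with a pseudocount of 1 RPKM, which by construction shrinks the differences of genes of low level, and lay between -0.31 and -0.26 under the other alternatives. After the correction for GC content and length, Tubb3, Elavl2 and Elavl4, all within counting error, changed sign, and 34 of 36 members stayed inside their counting interval. No paired analysis was possible because both libraries of a genotype share a single merged value, and for the same reason leaving out a library was not run. Whether 1 embryo decides any difference is unknown. Members with few reads, such as Myt1l, Onecut1, Syt4 and Slc32a1, are limited by depth.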
